A study of Homo sapiens with 12 samples.

Results

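The 8 genes described here encode enzymes that add acetyl groups to histones or remove them, and a corepressor that brings a deacetylase to chromatin. They were taken by name from the count table: the acetyltransferases CREBBP, EP300, KAT2A and KAT6A, the deacetylases HDAC1, HDAC2 and HDAC3, and the corepressor NCOR1, 8 of 28278 genes. All 8 had a row, and 7 had enough counts to be tested. HDAC2 did not, and NCOR1 passed the count filter with only 67 counts over all libraries.

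RNA came from OCI-Ly7, a human diffuse large B-cell lymphoma line, and from 3 CRISPR mutants made in it. They are compared as wild type (WT, 3 libraries), EZH2 Y646N, a gain-of-function change of the histone H3 lysine 27 methyltransferase (here the EZH2 mutant, 2 libraries), kmt2d-/-, without the enhancer H3 lysine 4 methyltransferase (the KMT2D mutant, 3 libraries), and kmt2d-/- + EZH2 Y646N (the double mutant, 3 libraries). The count columns of the last are headed DM, which was read as the double mutant because no other line carries both changes, and every double mutant value rests on that reading. All lines share the OCI-Ly7 background and were untreated, and the labels do not say whether a mutant line is 1 clone or a pool. EZH2 mutant replicate 3 was not analysed here. MARS-seq counts transcripts by their 3′ ends, and values below are normalised CPM, counts scaled to a common library size with edgeR's TMM factors. Library totals ran from 1118710 to 3107871 counts, lowest in EZH2 mutant replicate 1, so that 3 counts were 0.914 to 3.07 normalised CPM.

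Acetylation of histone tails marks active enhancers and promoters. CREBBP and EP300 are closely related coactivators that acetylate histone H3 lysine 27, the residue that EZH2 methylates, so the same lysine can carry either mark but not both. In germinal centre B cells the repressor BCL6 recruits NCOR1 with HDAC3, which deacetylates enhancers that CREBBP acetylates, and CREBBP, EP300, KMT2D and EZH2 are all recurrently mutated in lymphomas of germinal centre origin.

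The B-cell label was matched by the counts: MS4A1, CD79A, CD79B, PAX5 and CD22 were counted in all 4 lines, and markers of other cells were few. Summed per library, 9 T and NK cell markers reached at most 1.62 CPM of the library total (CD3D, CD2 and CD8A at 0 throughout) and 8 myeloid markers at most 1.85 (CSF1R, S100A8 and S100A9 at 0, CD14 with 13 counts). The 10 fibroblast and epithelial markers ran from 3.93 to 5.69 in WT, 0.458 to 0.894 in the EZH2 mutant, 1.76 to 5.64 in the double mutant and 1.44 to 5.47 in the KMT2D mutant, with 80 counts of ACTA2 in all. The 3 endothelial markers, mostly PECAM1 (56 counts), ran from 0.406 to 1.72 in WT and from 3.66 to 6.26 in the EZH2 mutant, with the other lines between 0.705 and 4.62. The summed level of 4 germinal centre markers, BCL6, MME, MYBL1 and CD38, ran from 355 to 404 CPM of the library total in WT and from 386 to 434 in the KMT2D mutant. It ran from 210 to 255 in the EZH2 mutant and from 213 to 256 in the double mutant, and the part of these shifts in the results below was not tested. Transcripts of EZH2 and KMT2D passed the test against WT in no mutant line; a 3′ count cannot see a point mutation, nor a deletion upstream of it.

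EP300 was lower and HDAC3 higher in both lines with EZH2 Y646N, the only genes of the 7 tested that passed against WT in both. Of these differences, only that of EP300 in the double mutant held under every alternative fit, as given below. The share of all tested genes that passed against WT in both lines was not counted. A gene was called when its p-value, adjusted by Benjamini-Hochberg over the 8813 genes tested with edgeR's quasi-likelihood test, was under 0.05. In the EZH2 mutant 4 of the 7 tested genes were called against WT, 2 of them higher (KAT2A and HDAC3) and 2 lower (EP300 and KAT6A), where 32.3% of all tested genes were called, 17.1% higher and 15.1% lower. The libraries of the lines did not overlap for 5 of the 7, where 55.0% of all tested genes did not. The KMT2D mutant had none of the 7 called by edgeR, DESeq2 or limma-voom, where 7.66% of all tested genes were called by edgeR, 3.18% higher and 4.48% lower. In that line 1 of the 7, HDAC1, had an unadjusted p under 0.05, and HDAC1 alone did not overlap, where 26.9% of all tested genes did not. In the double mutant EP300 was lower and HDAC3 higher, 2 of 7 called against 23.7% of all tested genes (12.1% higher and 11.6% lower), and these 2 were also those without overlap, against 38.3% of all. Each mutant line is compared with the same 3 WT libraries, so the 3 comparisons are not independent. With RNA from whole cultures, fewer cells that express a gene and less RNA per cell cannot be told apart.

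**Figure D1:**
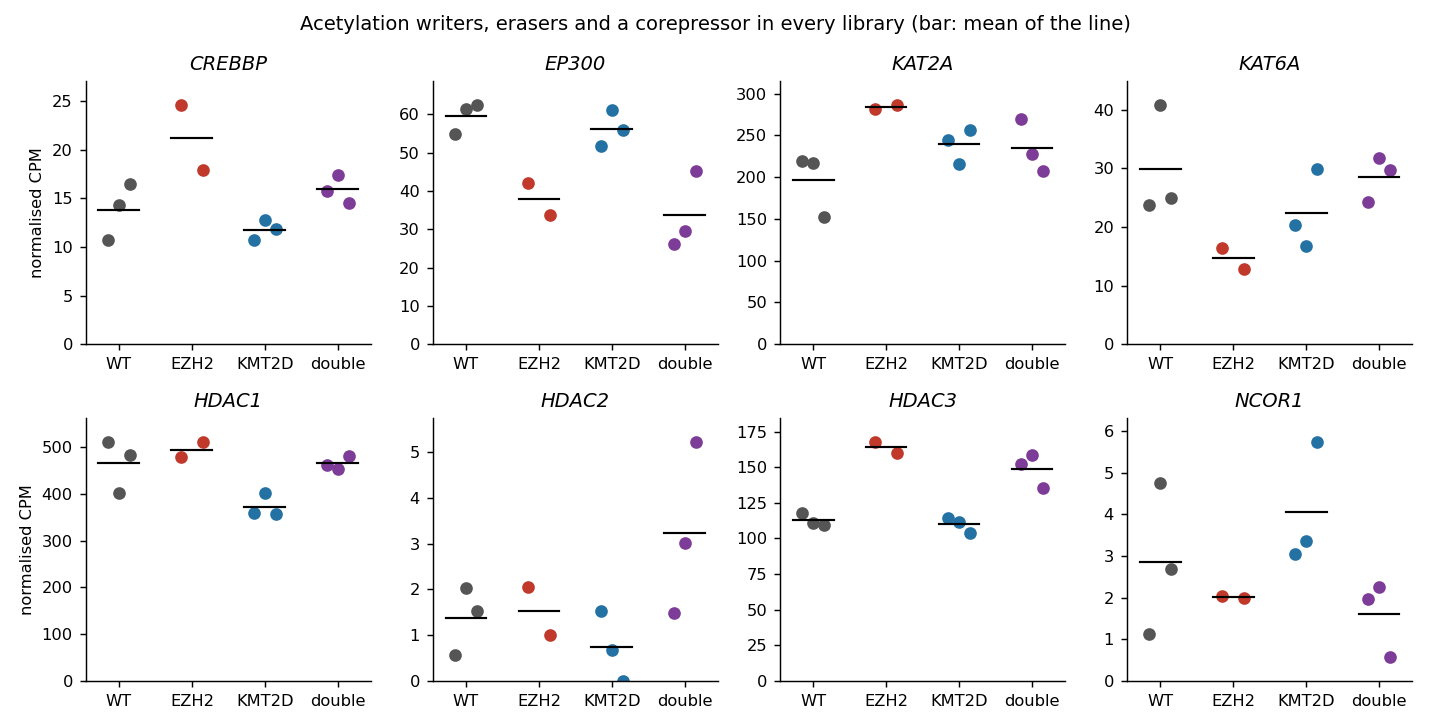
Normalised CPM (y axis, from 0) of the 8 genes in each of the 11 libraries, by line on the x axis; a point is a library and a bar the mean of its line. EP300 lies between 26.2 and 45.3 in the 5 libraries with EZH2 Y646N and between 51.8 and 62.5 in the other 6, and HDAC3 shows the opposite order. The share of all tested genes with such a split was not counted.

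CREBBP, the partner of EP300 in acetylating enhancers, had few counts (329 in all). Its levels were 10.8, 14.3 and 16.5 normalised CPM in WT, with 24.6 and 17.9 for the EZH2 mutant. The KMT2D mutant had 10.7, 12.8 and 11.9, and the double mutant 15.8, 17.4 and 14.5. The EZH2 mutant libraries were the highest of all 11, and the other lines overlapped with WT. The EZH2 mutant differed from WT by 0.55 on the log2 scale (SE 0.28, 95% interval -0.03 to 1.13, adjusted p = 0.136), which did not pass. The KMT2D mutant stood at -0.27 (SE 0.25, adjusted p = 0.583) and the double mutant at 0.17 (SE 0.25, adjusted p = 0.656), also without a call. CREBBP and EP300 thus lay on different sides of WT in the EZH2 mutant, with CREBBP at 153% and EP300 at 63.5% of the mean WT level; the difference between the 2 genes was not tested.

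EP300 encodes the acetyltransferase p300. Its levels were 54.9, 61.5 and 62.5 normalised CPM in WT and 51.8, 61.1 and 55.9 in the KMT2D mutant, which overlapped. The EZH2 mutant had 42.0 and 33.8, and the double mutant 26.2, 29.5 and 45.3. Every library with EZH2 Y646N thus lay below every library without it. The share of all tested genes split in this way was not counted. Between single lines, 55.0% of all tested genes did not overlap for the EZH2 mutant against WT. For the double mutant against the KMT2D mutant it was 53.3%. EP300 fell in the EZH2 mutant, by 0.69 on the log2 scale (SE 0.22, adjusted p = 0.0225). The double mutant fell by 0.83 (SE 0.19, adjusted p = 0.00366), to 56.4% of the mean WT level. In the KMT2D mutant the log2 difference was -0.10 (95% interval -0.46 to 0.27, adjusted p = 0.804). The double mutant call held under all 22 alternatives, at log2 differences of -1.14 to -0.65. That of the EZH2 mutant was lost without EZH2 mutant replicate 2 (log2 -0.51, adjusted p = 0.206), with a GC trend removed (log2 -0.32, adjusted p = 0.282) and with GC and abundance trends removed (log2 -0.56, adjusted p = 0.0558), both described below. The antisense gene EP300-AS1, with 41 counts against 1127 for EP300, overlaps the end of EP300 on the other strand, and because the strand of counting was not given in the sources used here, reads of the pair cannot be told apart.

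KAT2A, also called GCN5, is the acetyltransferase of the SAGA and ATAC coactivator complexes. It stood at 219.5, 217.3 and 152.6 normalised CPM in WT, with 281.7 and 286.4 for the EZH2 mutant. The KMT2D mutant had 244.3, 216.2 and 256.9, and the double mutant 269.4, 228.1 and 206.9. WT replicate 3 was the lowest of the 11 libraries and the EZH2 mutant pair the highest. KAT2A rose in the EZH2 mutant, by 0.53 on the log2 scale (SE 0.16, adjusted p = 0.0169), while neither the double mutant (log2 0.26, SE 0.15, adjusted p = 0.209) nor the KMT2D mutant (log2 0.29, SE 0.14, adjusted p = 0.264) passed. Without WT replicate 3 the EZH2 mutant value was 0.36 (adjusted p = 0.102), without EZH2 mutant replicate 2 it was 0.52 (adjusted p = 0.0659), with the GC trend removed it was 0.23 (adjusted p = 0.315), and with GC and abundance trends removed 0.06 (adjusted p = 0.827). The EZH2 mutant call was lost in 6 of 22 alternatives. In the KMT2D mutant the value was 0.44 with the GC trend removed (adjusted p = 0.0833). With both trends removed it was 0.50 there (adjusted p = 0.0823), so under both settings it was above that of the EZH2 mutant, without a call.

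KAT6A, or MOZ, acetylates histone H3 in a complex with a BRPF scaffold protein and an ING protein. WT libraries were at 23.8, 40.8 and 24.9 normalised CPM, with replicate 2 apart from the others, and the EZH2 mutant at 16.4 and 12.9. The KMT2D mutant had 20.4, 16.8 and 29.9 and the double mutant 24.2, 31.7 and 29.6, both overlapping with WT. KAT6A fell by 1.09 on the log2 scale in the EZH2 mutant (SE 0.32, adjusted p = 0.0150), the largest difference of the 7 genes there, on 42 counts in that line. It did not pass in the KMT2D mutant (log2 -0.41, SE 0.24, adjusted p = 0.358) or in the double mutant (log2 -0.10, SE 0.25, adjusted p = 0.810). All 3 double mutant libraries were above both EZH2 mutant libraries, with a log2 difference of 0.99 (SE 0.33) that did not pass the test (adjusted p = 0.135). The interaction, which asks whether the 2 mutations together differ from the sum of their single effects, was 1.40 on the log2 scale (SE 0.41, adjusted p = 0.0734); it passed with no filter (1.42, adjusted p = 0.0100), with the GC trend removed (1.38, adjusted p = 0.0483) and without KMT2D mutant replicate 3 (1.67, adjusted p = 0.0473). The fall in the EZH2 mutant was lost without WT replicate 2 (log2 -0.83, adjusted p = 0.0622), without EZH2 mutant replicate 2 (log2 -0.89, adjusted p = 0.151) and with the GC trend removed (log2 -0.80, adjusted p = 0.0635).

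HDAC1 is the catalytic subunit of the SIN3, NuRD, CoREST and MiDAC complexes. Its levels were 512.0, 402.9 and 483.4 normalised CPM in WT and 478.3 and 511.3 in the EZH2 mutant. The double mutant had 462.4, 453.9 and 482.4, and these 3 lines overlapped. In the KMT2D mutant they were 358.5, 402.1 and 357.7, each just below or well below the lowest WT library. The log2 difference of the KMT2D mutant from WT was -0.32 (SE 0.12, 95% interval -0.57 to -0.07), with an unadjusted p of 0.0134 that did not pass the correction (adjusted p = 0.113); without WT replicate 2 it was -0.42 (adjusted p = 0.0442). In the EZH2 mutant HDAC1 differed from WT by 0.09 (95% interval -0.19 to 0.37) and in the double mutant by 0.00 (95% interval -0.25 to 0.25), both on the log2 scale.

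HDAC2, the near relative of HDAC1 in the same complexes, was close to the limit of detection. It had 1, 6 and 4 counts in the WT libraries, and 2 and 2 in the EZH2 mutant. The KMT2D libraries had 5, 1 and 0, and those of the double mutant 3, 4 and 9. With no filter on low counts the log2 difference of the double mutant from WT was 1.02 (SE 0.71, adjusted p = 0.381), and that from the KMT2D mutant 1.89 (SE 0.80, adjusted p = 0.0518). A change in HDAC2 was not detectable at this depth, and since 3′ counts depend on which transcript end is counted, the low value does not show that the gene was off.

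HDAC3 is the deacetylase of the NCoR complex, the one that BCL6 uses at enhancers. In WT it was at 117.7, 111.2 and 109.6 normalised CPM and in the KMT2D mutant at 114.2, 111.4 and 104.2. The EZH2 mutant was at 168.0 and 160.3, and the double mutant at 152.5, 158.6 and 135.4. The 5 libraries with EZH2 Y646N were all above the other 6, and the spread within a line was small. As for EP300, the share of all tested genes split in this way was not counted. HDAC3 rose by 0.54 on the log2 scale in the EZH2 mutant (SE 0.14, adjusted p = 0.00617), to 145% of the mean WT level, and by 0.40 in the double mutant (SE 0.12, adjusted p = 0.0247), to 132%. The KMT2D mutant differed from WT by -0.04 (95% interval -0.30 to 0.22, adjusted p = 0.908). The EZH2 mutant call was lost in 1 of 22 alternatives, that with GC and abundance trends removed (log2 0.17, adjusted p = 0.289). The double mutant call was lost in 10, at log2 values that all stayed above 0, among them leaving out WT replicate 2 (0.36), WT replicate 3 (0.36), KMT2D mutant replicate 2 (0.36), double mutant replicate 1 (0.38) or double mutant replicate 2 (0.35).

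NCOR1, the corepressor that activates HDAC3 and tethers it to BCL6 and nuclear receptors, had 2, 14 and 7 counts in the WT libraries, and 2 and 4 in the EZH2 mutant. The KMT2D libraries had 10, 5 and 15, and those of the double mutant 4, 3 and 1. Its levels were 1.13 to 4.76 normalised CPM in WT, 1.99 to 2.05 in the EZH2 mutant, 0.581 to 2.27 in the double mutant and 3.05 to 5.74 in the KMT2D mutant, and each mutant line overlapped with WT. None of the 3 differences from WT was called, and their intervals were wide: -2.16 to 0.96 in the EZH2 mutant, -2.32 to 0.45 in the double mutant and -0.66 to 1.46 in the KMT2D mutant, on the log2 scale. The end of NCOR1 overlaps TTC19 on the other strand (380 counts), so these few counts are also uncertain in origin.

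**Figure D2:**
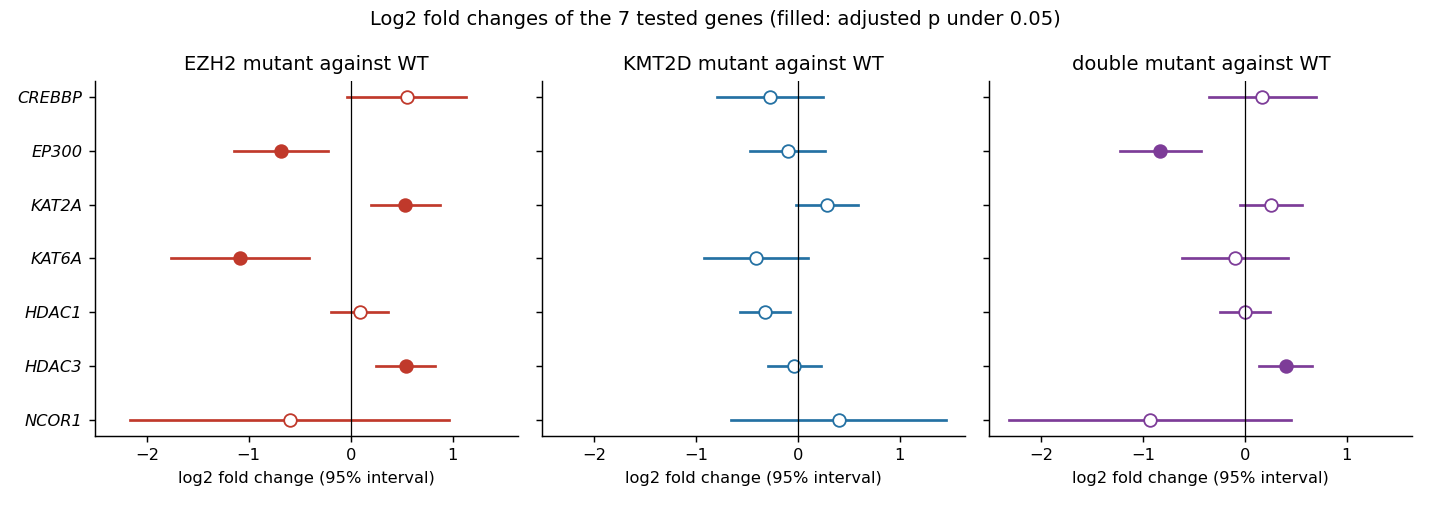
Log2 fold change against WT (x axis) of the 7 tested genes (y axis) in each mutant line; a line spans the 95% interval and a filled point has an adjusted p under 0.05. EP300 at -0.69 and -0.83 and HDAC3 at 0.54 and 0.40 are filled in the EZH2 mutant and the double mutant, and no point is filled in the KMT2D mutant.

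The mutant lines were also compared with one another. Between the double mutant and the EZH2 mutant, which differ in KMT2D, none of the 7 was called by edgeR, DESeq2 or limma-voom, where 2.29% of all tested genes were called by edgeR. An unadjusted p under 0.05 was found for 1 of the 7, KAT6A, and 4 of the 7 did not overlap, where 30.5% of all did not. Intervals of that log2 difference were -0.63 to 0.35 for EP300 and -0.43 to 0.15 for HDAC3. Between the double mutant and the KMT2D mutant, which differ in EZH2, 3 of the 7 were called, where 41.9% of all tested genes were, 21.2% higher and 20.8% lower. The libraries did not overlap for 5 of the 7, where 53.3% of all tested genes did not. EP300 was lower in the double mutant (log2 -0.73, SE 0.19, adjusted p = 0.00490), HDAC3 higher (log2 0.44, SE 0.12, adjusted p = 0.00876) and HDAC1 higher (log2 0.32, SE 0.12, adjusted p = 0.0352). Of these, EP300 lost its call with the GC trend removed (log2 -0.40, adjusted p = 0.10), HDAC3 without KMT2D mutant replicate 3 (log2 0.36, adjusted p = 0.0603), with upper-quartile factors (0.29) and with GC and abundance trends removed (0.09, adjusted p = 0.536). KAT2A, not called between these lines in the main fit, became a lower call with GC and abundance trends removed (log2 -0.52, adjusted p = 0.0254). HDAC1 lost its call in 13 of 22 alternatives. It stood at 0.01 (adjusted p = 0.957) with GC and abundance trends removed and at 0.18 with upper-quartile factors, and its call was also lost without any 1 of the 3 double mutant libraries (log2 0.27 to 0.34), WT replicate 3 (0.30), KMT2D mutant replicate 1 (0.28) or KMT2D mutant replicate 3 (0.26).

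The EZH2 mutant against the KMT2D mutant gave 4 of 7 calls, where 45.8% of all tested genes were called, 23.4% higher and 22.4% lower. None of the 7 overlapped, where 65.8% of all tested genes did not. CREBBP (log2 0.82, SE 0.29, adjusted p = 0.0240), HDAC1 (log2 0.41, SE 0.13, adjusted p = 0.0166) and HDAC3 (log2 0.58, SE 0.14, adjusted p = 0.00254) were higher in the EZH2 mutant, and EP300 was lower (log2 -0.59, SE 0.22, adjusted p = 0.0357). The CREBBP call was lost in 8 of 22 alternatives, including those without EZH2 mutant replicate 1 (log2 0.66), KMT2D mutant replicate 1 (0.70) or KMT2D mutant replicate 3 (0.77). EP300 also lost its call in 8. Its difference was -0.07 (adjusted p = 0.823) with the GC trend removed and -0.37 with both trends removed, and the others include those with the replicate number as a block (log2 -0.52, adjusted p = 0.0732) and without EZH2 mutant replicate 1 (-0.69), EZH2 mutant replicate 2 (-0.41), KMT2D mutant replicate 2 (-0.54) or KMT2D mutant replicate 3 (-0.65). HDAC1 lost its call in 6, at 0.02 (adjusted p = 0.912) with GC and abundance trends removed, at 0.21 with upper-quartile factors, and among others without EZH2 mutant replicate 2 (log2 0.36), KMT2D mutant replicate 1 (0.33) or KMT2D mutant replicate 3 (0.32). HDAC3 lost its call in 1, with GC and abundance trends removed (0.09, adjusted p = 0.588). KAT6A, not called in the main fit (log2 -0.67), became a lower call with upper-quartile factors (log2 -0.87, adjusted p = 0.0397). For the interaction of the mutations none of the 7 was called by edgeR, DESeq2 or limma-voom, where 3.02% of all tested genes were called by edgeR. An unadjusted p under 0.05 was found for 2 of the 7, KAT6A (above) and KAT2A (log2 -0.56, SE 0.22, adjusted p = 0.192).

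Base composition separated the lines across the whole table. At its ends lay 3 of the 4 genes called in the EZH2 mutant, and also NCOR1, which was not called. Tested genes were put in 5 groups of about equal size by the GC content of the last 500 bases of their longest GENCODE 29 transcript, near where MARS-seq reads begin. In the group with the lowest GC content, 23.0% to 35.0%, the median log2 difference of the EZH2 mutant from WT was -0.55, and in the group with the highest, 55.8% to 77.0%, it was 0.27. The same medians were -0.30 and 0.20 in the double mutant, and 0.21 and -0.14 in the KMT2D mutant. EP300 (33.2%), NCOR1 (32.8%) and, at its upper limit, KAT6A (35.0%) were in the group of lowest GC content, and KAT2A (58.6%) in the highest. HDAC3 (48.2%), CREBBP (46.8%) and HDAC1 (44.0%) were in the middle one, whose EZH2 mutant median was 0.04. The lowest and highest groups held 1755 and 1681 of the 8510 tested genes with a GC value. The share of all called genes in these groups was not counted.

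**Figure D3:**
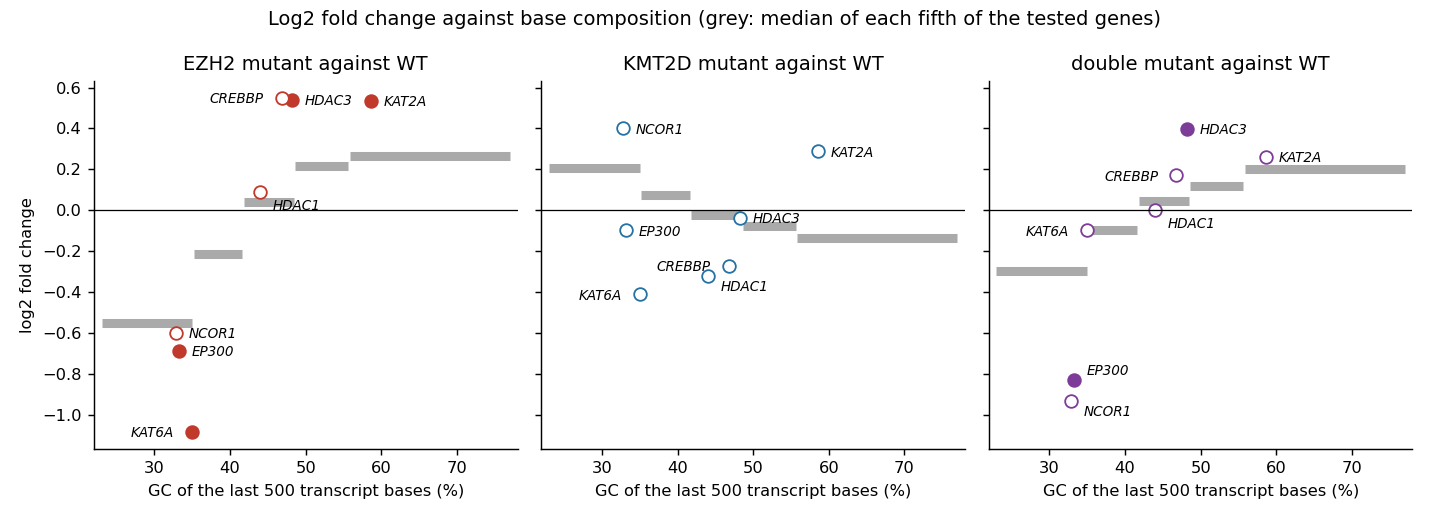
Log2 fold change against WT (y axis) by GC content of the last 500 transcript bases (x axis, %) for the 7 tested genes; grey bars give the median of each of the 5 groups of all tested genes, and filled points have an adjusted p under 0.05. In the EZH2 mutant the bars climb from -0.55 to 0.27; EP300 lies close to its bar there and further below it in the double mutant, and HDAC3 lies above its bar in both.

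With a smooth GC trend removed from each library, 1 of the 4 EZH2 mutant calls was kept, that of HDAC3 (log2 0.37, adjusted p = 0.0198), and both double mutant calls were kept, EP300 at -0.65 (adjusted p = 0.0153) and HDAC3 at 0.34 (adjusted p = 0.0220). With GC and abundance trends removed together, EP300 kept its double mutant call (log2 -0.85, adjusted p = 0.00194) and KAT6A its EZH2 mutant call (log2 -0.87, adjusted p = 0.0462), and HDAC3 had neither (log2 0.17 in both lines). The same removal moved the EZH2 mutant values of genes named below that kept their calls, NAA10 to 0.67, RUVBL1 to 0.57, CHD3 to 0.58, MLLT1 to 0.43, HDAC7 to -1.28 and HDAC6 to -1.06.

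**Figure D4:**
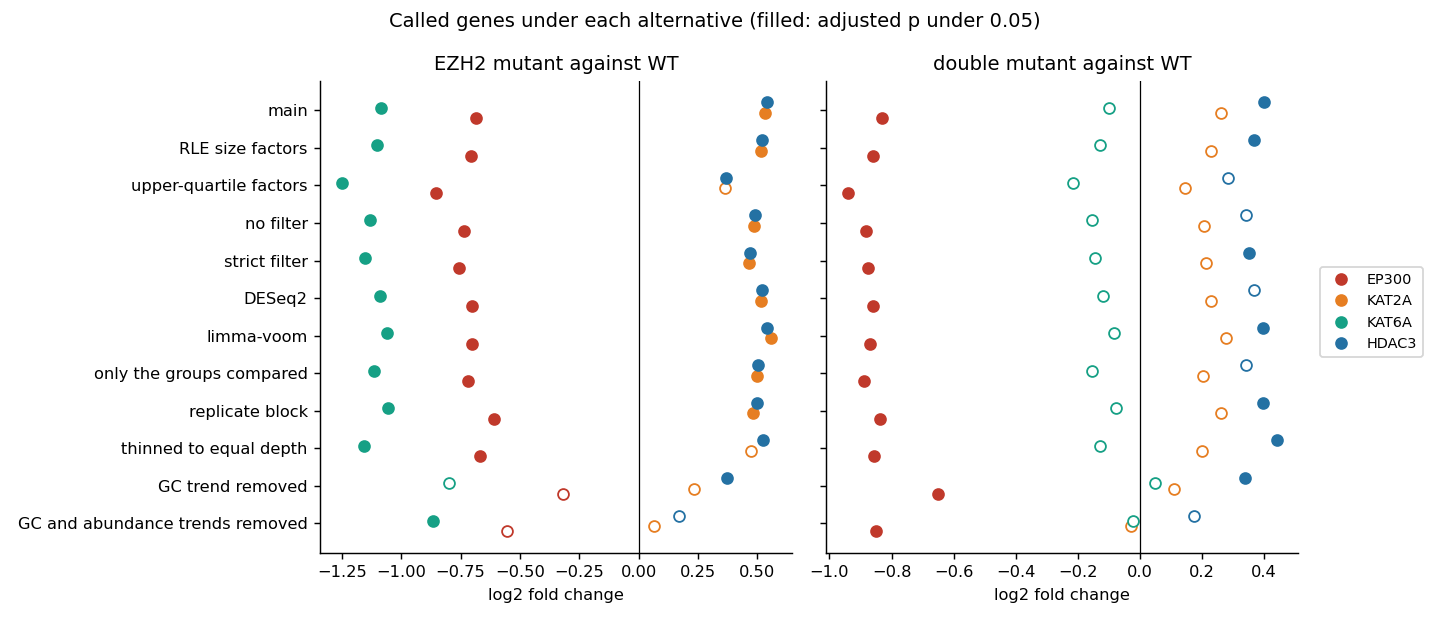
Log2 fold change (x axis) of EP300, KAT2A, KAT6A and HDAC3 under the main fit and 11 other ways of processing (y axis) in the EZH2 mutant and the double mutant; filled points have an adjusted p under 0.05. The EP300 points of the double mutant are filled throughout, between -0.94 and -0.65 in this plot.

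HDAC3 and KAT2A were the 2 genes that rose in the EZH2 mutant, and their promoters are shown because both were higher there while having different CpG content, CpG being the dinucleotide at which DNA is methylated. The letters are from RefSeq (GRCh38.p14), read 5′ to 3′ on the minus strand, on which both genes lie, and end just before the gene start in GENCODE 29. CpG dinucleotides are in capitals.
HDAC3, chr5:141636871-141637099: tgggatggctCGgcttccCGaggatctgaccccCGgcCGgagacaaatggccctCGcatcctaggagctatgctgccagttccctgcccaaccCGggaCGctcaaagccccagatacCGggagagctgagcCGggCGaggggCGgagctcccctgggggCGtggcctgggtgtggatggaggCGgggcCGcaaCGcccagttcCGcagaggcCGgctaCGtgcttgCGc
KAT2A, chr17:42121368-42121617: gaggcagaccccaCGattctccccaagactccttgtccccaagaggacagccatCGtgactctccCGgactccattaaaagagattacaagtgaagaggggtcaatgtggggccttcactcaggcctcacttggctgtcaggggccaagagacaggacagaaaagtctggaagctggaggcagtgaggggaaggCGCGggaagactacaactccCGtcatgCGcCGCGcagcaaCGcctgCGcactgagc
The HDAC3 stretch of 229 bases holds 19 CpG dinucleotides and the KAT2A stretch of 250 bases holds 11, most of them in its last part, nearest the gene.

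Promoter windows of 250 bases before the start were found for 7 of the 8 genes, all but KAT6A. The window of HDAC3 has a GC content of 70.8% and an observed over expected CpG ratio of 0.71, that of EP300 76.8% and 0.96, and that of KAT2A 58.8% and 0.51, where the median of 35116 windows was 58.0% and 0.56. The GC box GGGCGG, or its reverse CCGCCC, occurs 1 time in the HDAC3 window, 3 times in that of HDAC1 and 3 and 4 times in the 2 windows of CREBBP, and 42.6% of all windows hold it. CCAAT or ATTGG, which 32.0% of all windows hold, was found in the HDAC1 window only, and TGACGTCA, which 1.6% hold, in none of the members' windows. The windows of EP300 and KAT2A, one a gene that fell and the other a gene that rose, hold none of these 3 motifs. A match is a description of the letters and no evidence of binding.

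Wider lists of 161 genes gave 124 tested genes; they hold other enzymes, complexes and readers of acetylation, and also genes of acetyl-CoA supply, BCL6 with its corepressors, and MHC class II genes. In the EZH2 mutant 18 of the 124 were higher and 20 lower than WT, which is 30.6% beside 32.3% of all tested genes, and in the double mutant 10 and 14 (19.4% beside 23.7%). The KMT2D mutant had 1 higher and 6 lower (5.65% beside 7.66%). The median log2 difference of the listed genes was -0.08 in the EZH2 mutant, 0.02 in the double mutant and -0.03 in the KMT2D mutant, and that of all tested genes -0.04, -0.01 and 0.00 in the same order.

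**Figure D5:**
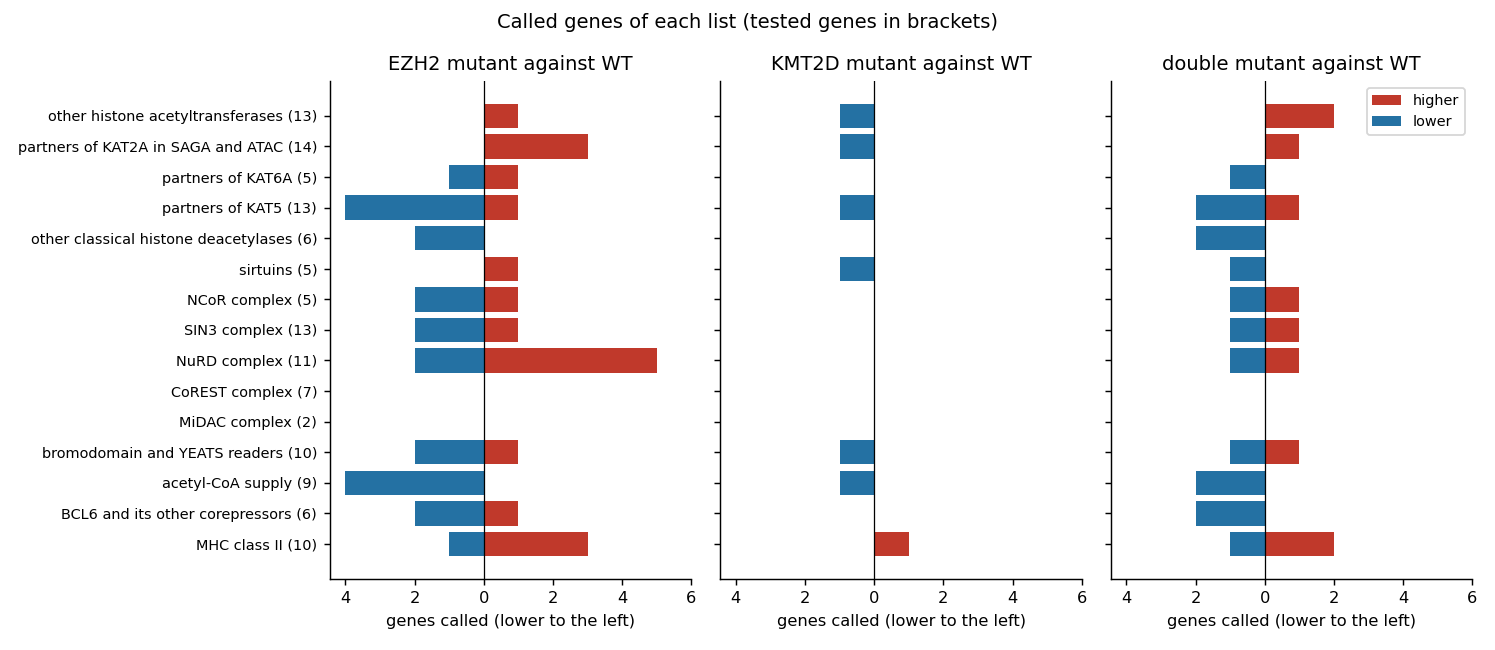
Number of genes called higher (right) and lower (left) than WT in each of 15 lists (y axis, with the number tested in brackets) for each mutant line. In the EZH2 mutant the NuRD list has the most higher calls, 5 of 11, and the lists of KAT5 partners and acetyl-CoA supply the most lower calls, 4 each. In that line 17.1% of all tested genes were called higher and 15.1% lower.

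In the EZH2 mutant 32.3% of all tested genes were called. Among acetyltransferases outside the 8 genes, 1 of 13 tested was called there. It is better known as an enzyme for the amino ends of proteins than for histones. NAA10, the catalytic subunit of the main N-terminal acetyltransferase, rose from 132 ± 3.29 normalised CPM (SD, n = 3) in WT to 279 ± 25.7 (n = 2) in the EZH2 mutant (log2 1.07, SE 0.14) and to 214 ± 30.4 (n = 3) in the double mutant (log2 0.69, SE 0.13). It fell by 0.50 on the log2 scale in the KMT2D mutant, a call lost without KMT2D mutant replicate 1 (log2 -0.47) or replicate 3 (log2 -0.51). NAA60, another such enzyme, rose in the double mutant (log2 0.52, SE 0.17), a call lost in 10 of 22 alternatives, including those with GC and abundance trends removed (0.26) and without WT replicate 2 (0.36), WT replicate 3 (0.51), KMT2D mutant replicate 2 (0.47), double mutant replicate 1 (0.46) or double mutant replicate 2 (0.48).

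Across all tested genes, 17.1% were called higher and 15.1% lower in the EZH2 mutant. Of 14 tested partners of KAT2A in SAGA and ATAC, 3 were higher there and none lower, with a median log2 difference of 0.16. They include USP22, the deubiquitinase of SAGA (log2 0.70, SE 0.14; 0.30 and not called with GC and abundance trends removed), and SGF29, which binds methylated H3 lysine 4 (log2 0.69, SE 0.17, and 0.39 with the GC trend and 0.31 with both trends removed, where its call was lost). USP22 was also higher in the double mutant (log2 0.42, SE 0.13), a call lost with both trends removed (0.19), with upper-quartile factors (0.31), and without WT replicate 3 (0.30) or double mutant replicate 1 (log2 0.32). ATXN7L3, an activator of USP22, fell by 0.54 on the log2 scale in the KMT2D mutant, and lost its call without WT replicate 1, WT replicate 3, KMT2D mutant replicate 1 or KMT2D mutant replicate 3 (log2 -0.52, -0.51, -0.46 and -0.48).

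In the list of KAT6A partners, with 5 tested genes, the PHD finger protein gene ING4 was lower in the EZH2 mutant (log2 -0.61, SE 0.18). Without EZH2 mutant replicate 2 it was at -0.51 and not called. ING4 was also lower in the double mutant (log2 -0.44, SE 0.15). The latter call was lost in 6 of 22 alternatives, including those without WT replicate 1 (-0.39), WT replicate 2 (-0.47), double mutant replicate 2 (-0.44) or double mutant replicate 3 (-0.38). ING5, its close relative, was higher in the EZH2 mutant (log2 0.50, SE 0.19), a call lost in 18 of 22 alternatives, including those without any 1 library other than WT replicate 1 (log2 0.42 to 0.52). Among 13 tested partners of KAT5, the acetyltransferase of the NuA4/TIP60 complex, 4 were lower in the EZH2 mutant and 1 higher. Their median log2 difference was -0.69, and 32.3% of all tested genes were called in that line. YEATS4, an acetyl-lysine reader of that complex, fell from 105 ± 26.1 normalised CPM (SD, n = 3) in WT to 39.3 ± 0.561 (n = 2) in the EZH2 mutant (log2 -1.41, SE 0.22) and to 57.6 ± 8.58 (n = 3) in the double mutant (log2 -0.86, SE 0.18). The ATPase gene RUVBL1 rose in the same lines (log2 0.97, SE 0.15, and 0.70, SE 0.13), and its partner RUVBL2 fell in the KMT2D mutant (log2 -0.81, SE 0.12), from 371 ± 22.6 to 212 ± 21.7 normalised CPM (SD, n = 3 each). The interaction of the mutations was called for RUVBL2 (log2 0.90, adjusted p = 0.00793).

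The other classical deacetylases had 6 tested genes, of which 2 were lower and none higher in both the EZH2 mutant and the double mutant. Shares of all tested genes called in these lines were 32.3% and 23.7%. HDAC7, a class IIa deacetylase that acts through the NCoR complex in lymphocytes, was at 207 ± 39.1 normalised CPM (SD, n = 3) in WT, 121 ± 40.8 (n = 2) in the EZH2 mutant (log2 -0.80, SE 0.21) and 142 ± 16 (n = 3) in the double mutant (log2 -0.54, SE 0.17). HDAC6, which deacetylates tubulin in the cytoplasm, fell by 0.65 (SE 0.17) and 0.44 (SE 0.15) on the log2 scale in the same lines. Without EZH2 mutant replicate 2 the EZH2 mutant calls of HDAC7 (log2 -0.46) and HDAC6 (log2 -0.54) were lost. Both double mutant calls were lost without WT replicate 1 (log2 -0.38 and -0.35), double mutant replicate 1 (log2 -0.45 and -0.40) or double mutant replicate 3 (log2 -0.58 and -0.41).

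The sirtuins, deacylases that need NAD, had 5 tested genes. SIRT2 fell in the KMT2D mutant from 89.3 ± 8.82 to 47.6 ± 4.08 normalised CPM (SD, n = 3 each; log2 -0.89, SE 0.16, kept in all 22 alternatives). Not called in the other lines, it became a lower call in the EZH2 mutant with upper-quartile factors (log2 -0.49), the GC trend removed (-0.64) or both trends removed (-0.75), and in the double mutant with both trends removed (-0.44, adjusted p = 0.0314). SIRT7 rose in the EZH2 mutant (log2 0.59, SE 0.16), and its call was lost with the GC trend removed (log2 0.34), with both trends removed (0.20) and without EZH2 mutant replicate 2 (log2 0.47). SIRT5, a mitochondrial desuccinylase, fell in the double mutant (log2 -1.02, SE 0.31), with its call lost without double mutant replicate 1 (log2 -0.76), with DESeq2 (-1.06) and after thinning to equal depth (-0.65).

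In the NCoR complex itself, with 5 tested genes outside the 8, 1 was higher and 2 lower in the EZH2 mutant, and 1 higher and 1 lower in the double mutant. Calls made up 32.3% and 23.7% of all tested genes in these lines. GPS2, a core subunit that binds NCOR1 and TBL1 proteins, rose from 137 ± 5.20 normalised CPM (SD, n = 3) in WT to 253 ± 31.9 (n = 2) in the EZH2 mutant (log2 0.89, SE 0.14) and 235 ± 26.4 (n = 3) in the double mutant (log2 0.78, SE 0.13). With GC and abundance trends removed the EZH2 mutant value of GPS2 was 0.44 and not called (adjusted p = 0.0837), and the double mutant value was 0.50. CORO2A, a further subunit, was called lower with 0 counts in the EZH2 mutant against 15 in WT, at least 2.04-fold lower with 3 counts over the group in place of 0. In the double mutant it had 1 count, a ratio 10.4-fold lower (95% interval 1.60 to 438, counting error only). The CORO2A calls were lost in both lines with GC and abundance trends removed and with DESeq2 (DESeq2 adjusted p = 0.0626 and 0.0915). The EZH2 mutant call was also lost without EZH2 mutant replicate 1 or 2. That of the double mutant was lost with the replicate number as a block (adjusted p = 0.0564) and without double mutant replicate 2 or 3 (0.0973 and 0.0993).

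HDAC1 and HDAC2 act in the NuRD, SIN3, CoREST and MiDAC complexes, whose other subunits were read next. None of 7 tested CoREST genes and none of 2 tested MiDAC genes was called by edgeR, DESeq2 or limma-voom in any mutant line against WT; at an unadjusted p under 0.05 there were 2 CoREST genes, KDM1A and RCOR2, both in the double mutant. Of 11 tested NuRD genes 5 were higher and 2 lower in the EZH2 mutant, with a median log2 difference of 0.47, and 1 and 1 in the double mutant. Beside the counts of these complexes, 32.3% of all tested genes were called in the EZH2 mutant. The share was 23.7% in the double mutant and 7.66% in the KMT2D mutant. The remodelling ATPase gene CHD3 rose from 160 ± 26.6 normalised CPM (SD, n = 3) in WT to 333 ± 57.9 (n = 2) in the EZH2 mutant (log2 1.05, SE 0.18) and 302 ± 35.5 (n = 3) in the double mutant (log2 0.92, SE 0.16). RBBP4, a histone chaperone shared by NuRD, SIN3 and the EZH2 complex PRC2, fell in these lines by 0.89 (SE 0.19) and 0.63 (SE 0.16) on the log2 scale. In the SIN3 list, with 13 tested genes, RBBP4 and 1 other gene were lower and BRMS1 was higher in the EZH2 mutant (log2 1.19, SE 0.20), and BRMS1 was also higher in the double mutant (log2 0.86, SE 0.18). The calls of CHD3, RBBP4 and BRMS1 against WT held in all 22 alternatives in both lines.

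Readers of acetylated lysines, 10 of 20 tested, gave 2 lower and 1 higher call in the EZH2 mutant, where 32.3% of all tested genes were called. BRD3 of the BET family fell there (log2 -1.19, SE 0.29), with -1.16 and no call without EZH2 mutant replicate 2. MLLT1, a YEATS reader of the super elongation complex, rose (log2 0.82, SE 0.15). BRD2 fell in the KMT2D mutant (log2 -0.78, SE 0.17). It was not called in the EZH2 mutant, at 483 ± 138 normalised CPM (SD, n = 2) beside 340 ± 25.4 (n = 3) in WT. There it became a higher call with no filter (log2 0.45), after thinning to equal depth (0.47) and without double mutant replicate 2 (0.50). Without EZH2 mutant replicate 2 the BRD2 value was 0.77. In the double mutant MLLT1 was higher (log2 0.54, SE 0.14; not called without double mutant replicate 3 at 0.43 or with GC and abundance trends removed at 0.32) and BAZ2A lower (log2 -0.47, SE 0.15; not called without WT replicate 2 at -0.42, WT replicate 3 at -0.48, double mutant replicate 2 at -0.44 or double mutant replicate 3 at -0.46).

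Enzymes that supply acetyl-CoA, the donor that all acetyltransferases use, gave 4 lower calls and none higher of 9 tested in the EZH2 mutant, and 2 lower calls in the double mutant. Lower calls made up 15.1% and 11.6% of all tested genes in these lines. ACLY, which cleaves citrate to acetyl-CoA, fell from 136 ± 12.4 normalised CPM (SD, n = 3) in WT to 63.2 ± 16.4 (n = 2) in the EZH2 mutant (log2 -1.14, SE 0.19). In the double mutant it was at 92.4 ± 14 (n = 3; log2 -0.56, SE 0.15), a call lost without double mutant replicate 1 (log2 -0.47) or replicate 2 (log2 -0.53). ACSS2, which makes acetyl-CoA from acetate, had 177 counts in WT, 4 in the EZH2 mutant and 7 in the double mutant, and was called in both. In the KMT2D mutant ACSS2 was also lower, at 11.7 ± 1.85 against 24.5 ± 4.40 normalised CPM in WT (SD, n = 3 each; log2 -1.07, SE 0.28), a call lost in 6 of 22 alternatives, including those without WT replicate 1 (-1.05), WT replicate 3 (-0.93), KMT2D mutant replicate 1 (-0.92) or KMT2D mutant replicate 3 (-1.17).

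BCL6, which recruits NCOR1 and HDAC3 in germinal centre B cells, fell from 119 ± 14.4 normalised CPM (SD, n = 3) in WT to 39.8 ± 5.54 (n = 2) in the EZH2 mutant (log2 -1.55, SE 0.19) and 61.0 ± 4.54 (n = 3) in the double mutant (log2 -0.95, SE 0.15). BCOR, its other corepressor, was lower in these lines (log2 -0.93, SE 0.33, and -0.87, SE 0.28), calls lost in 6 and 4 of 22 alternatives. Those of the EZH2 mutant include removing the GC trend (-0.54) and leaving out WT replicate 2 (-0.95), WT replicate 3 (-0.85) or EZH2 mutant replicate 1 (-0.54), and those of the double mutant are leaving out WT replicate 2 (-0.86), WT replicate 3 (-0.80), double mutant replicate 1 (-0.78) or double mutant replicate 2 (-0.66). MTA3, a NuRD subunit that BCL6 binds, was higher in the EZH2 mutant (log2 0.47, SE 0.14), a call lost in 7 alternatives, at 0.04 (adjusted p = 0.865) with GC and abundance trends removed, 0.21 with the GC trend removed, 0.30 with upper-quartile factors, and also without WT replicate 2 (0.40), EZH2 mutant replicate 1 (0.50) or EZH2 mutant replicate 2 (0.47). Of 10 tested MHC class II genes, known targets of CREBBP and HDAC3 in lymphoma, 3 were higher and 1 lower in the EZH2 mutant, 1 higher in the KMT2D mutant, and 2 higher and 1 lower in the double mutant. The shares of all tested genes called were 32.3%, 7.66% and 23.7% in the same order. HLA-DQB1 rose in the EZH2 mutant (log2 0.63, SE 0.15) and the double mutant (log2 0.56, SE 0.14), HLA-DOB fell in both (log2 -0.83, SE 0.18, and -0.81, SE 0.15), and HLA-DMB rose in the KMT2D mutant (log2 0.67, SE 0.13). HLA genes have close relatives whose reads the counting may split, so their values are uncertain.

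The genes most like each of the 4 called genes were sought among 6468 genes with a mean of at least 10 CPM, by the root mean square difference of log2 CPM centred on WT over the 11 libraries. Nearest to HDAC3 were HLA-DPA1 (0.06), CIAO2B (0.07) and JPT1 (0.07), where the median gene differed by 0.43. HLA-DPA1 itself was at log2 0.54 in the EZH2 mutant, 0.36 in the double mutant and -0.05 in the KMT2D mutant, beside 0.54, 0.40 and -0.04 for HDAC3. Nearest to EP300 were ZNF33B (0.17), PLCL2 (0.19) and PLA2G15 (0.20), with a median of 0.70. Nearest to KAT2A were SPI1 (0.11), ARHGAP27P2 (0.11) and RPL36 (0.12), with a median of 0.48, and to KAT6A ARPC4-TTLL3 (0.25), POU2F1 (0.28) and FANCI (0.28), with a median of 0.67. All 11 libraries enter each likeness, and so do their depth and base composition.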

How the data were processed

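The deposited values are counts per gene, which the authors call corrected without saying for what. The submitters' processing notes name STAR 2.7.0f, cutadapt 1.15, FastQC, Trim Galore 0.6.0 and DESeq2, without their roles; the counter, build, annotation and strand are not given in the sources used here. Of 28278 genes, 8813 passed filterByExpr (minimum count 10) and were fitted over all 11 libraries in edgeR 4.0.16 (R 4.3.3) by a robust quasi-likelihood model with TMM factors, tested for each pair of lines and the interaction, and adjusted by Benjamini-Hochberg. No label says that replicates were separate cultures, so p-values reflect the spread of these libraries alone, which may be technical. Alternatives were no filter, a strict filter (30 counts), upper-quartile or RLE factors, DESeq2 1.42.0, voom in limma 3.58.1, only the groups compared, a replicate block, each library left out and, added after the data were seen, GC and abundance corrections and thinning to equal depth. GC values covered 96.6% of tested genes. Scripts were tested on simulated data. The members and lists were chosen with earlier results of these data known. Named are the 8 genes, for each list and mutant line up to 2 called genes with the smallest adjusted p, and the 3 nearest genes of each called member. Some listed genes and markers are not reported here.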

Additional observations from a re-analysis of the deposited data

Results flagged for a closer look

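The effect of one mutation differed with the other present, by the interaction term of the fit in edgeR, for 3 of the 124 tested genes of the lists (2.42%, beside 3.02% of all tested genes). It did so for none of the 7 tested members, and HDAC2 was not tested. For RUVBL2, the ATPase of chromatin complexes, it was 0.90 on the log2 scale (adjusted p = 0.00793): the KMT2D mutant was lower than WT and the double mutant was not. SIRT2 showed the same order, with 1.01 (adjusted p = 0.0277), except that with GC and abundance trends removed the double mutant was called lower too (log2 -0.44, adjusted p = 0.0314). For BCL6 it was 0.97 (adjusted p = 0.0305), with the double mutant nearer to WT than the EZH2 mutant was. The RUVBL2 value was called in all 21 alternatives, the SIRT2 value in 14 and the BCL6 value in 13. No explanation was tested.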

How the results depend on the processing

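Without 1 EZH2 mutant library the line rests on a lone sample, assumed to vary like the other lines, and on few counts CREBBP, NCOR1 and HDAC2 could show only large differences. In the EZH2 mutant against WT, 4 of the 8 genes were called, 1 with the GC trend removed, 1 with GC and abundance trends removed, and 1 to 4 with 1 library left out (2846 of all genes, 1779 to 2874). In the KMT2D mutant against WT there were 0, and 0 to 1 with 1 library left out (675 of all genes, 430 after thinning, 339 to 802). In the double mutant against WT there were 2, and 1 each with upper-quartile factors, no filter, DESeq2, only the groups compared or GC and abundance trends removed, and 1 to 2 with 1 library left out (2087 of all genes, 1381 to 2286). The double mutant against the EZH2 mutant gave 0 throughout; of all genes 202 were called, 381 with no filter, 342 and 329 with the GC trend or both trends removed, 92 with only the groups compared, and 99 to 242 with 1 library left out. Against the KMT2D mutant the double mutant gave 3, 1 with upper-quartile factors, and 1 to 3 with 1 library left out (3695 of all genes, 2708 to 3885), and the EZH2 mutant 4, 2 each with DESeq2, the GC trend removed or thinning, 1 with both trends removed, and 1 to 4 with 1 library left out (4040 of all genes, 2872 to 4076). For the interaction there were 0, 1 each with no filter or the GC trend removed, and 0 to 1 with 1 library left out; of all genes 266 were called, 482 with no filter, 464 and 463 with the GC trend or both trends removed, and 147 to 309 with 1 library left out. Upper-quartile factors moved the median log2 difference of all genes to -0.20 in the EZH2 mutant and -0.13 in the double mutant against WT, from -0.04 and -0.01. With GC and abundance trends removed, ATXN7L3 (log2 -0.35, adjusted p = 0.0467) and RUVBL2 (log2 -0.35, adjusted p = 0.0252), which stood above WT in the EZH2 mutant without a call, became lower calls there, as did SIRT2, already below WT (log2 -0.75, adjusted p = 0.00203). Except where stated, the cause was not tested.

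Whether replicate numbers pair the libraries cannot be told from correlations of their deviations from the line mean. Over 15 pairs of the same number these ran from -0.29 to 0.38, and 5 were over 0.1. Over 30 pairs of different number they ran from -0.38 to 0.29, and 10 were over 0.1. Still, 7 of 11 libraries correlated best with a library of their own number. The 2 EZH2 mutant libraries deviate in mirror image by construction. With the replicate number as a block, the counts of called members were 4, 0 and 2 for the EZH2, KMT2D and double mutant against WT (2445, 629 and 2002 of all genes), 0 and 3 for the double mutant against the EZH2 and KMT2D mutant (151 and 3630), 3 for the EZH2 mutant against the KMT2D mutant (3589) and 0 for the interaction (230).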
